A study of Arabidopsis thaliana with 6 samples.

Results

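The 10 genes described here encode aquaporins of Arabidopsis thaliana, channel proteins that let water cross membranes. They were chosen by gene ID from tables of 21125 genes, and all 10 were listed and passed the filter on low values. Of these, 4 belong to the PIP1 and 4 to the PIP2 group of plasma membrane intrinsic proteins (PIPs), and 2 are tonoplast intrinsic proteins (TIPs) of the vacuole membrane. Transcripts were measured by RNA sequencing of total RNA from root tips of about 2 mm, with about 300 tips pooled per library and plants 6 days old. The mutant was scl28-3, which carries an allele of the GRAS-family transcription factor gene SCL28, with 3 libraries, and it was set against wild type, also with 3 libraries. Seedlings of both genotypes grew at 21 °C under constant light on agar with Murashige and Skoog salts and sucrose, and the labels name no other allele or agent in either. The labels do not describe the lesion in scl28-3, and each library pooled all cell types of the tip.

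Each aquaporin monomer forms a pore lined by a pair of conserved asparagine-proline-alanine motifs, the NPA boxes. PIP2 proteins are efficient water channels of the plasma membrane, and PIP1 proteins often reach that membrane by assembling with PIP2 partners. TIPs make the vacuole membrane permeable to water and are abundant in root cells that elongate around a large central vacuole, whereas dividing cells of the meristem hold small vacuoles. In pooled tips, fewer cells of a type and less RNA per cell cannot be told apart.

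The coding stretch around the first NPA box is a short part of each gene, and it shows a copy that can share reads with PIP2;2. It is given below, 60 bases 5′ to 3′ from RefSeq's TAIR10.1 genome, for 4 PIP genes and both TIP members. Capitals mark the 9 bases that encode the box, found as AATCCNGCN or AACCCNGCN in frame, which occurred at 2 places in the coding sequence of each member.
PIP1;1: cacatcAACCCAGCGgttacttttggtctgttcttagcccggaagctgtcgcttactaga
PIP2;1: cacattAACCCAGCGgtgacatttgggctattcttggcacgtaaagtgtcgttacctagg
PIP2;2: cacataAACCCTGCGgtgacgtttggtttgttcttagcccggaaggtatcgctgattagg
PIP2;3: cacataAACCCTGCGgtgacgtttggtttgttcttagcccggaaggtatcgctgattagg
TIP1;1: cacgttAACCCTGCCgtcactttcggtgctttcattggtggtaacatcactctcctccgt
TIP2;2: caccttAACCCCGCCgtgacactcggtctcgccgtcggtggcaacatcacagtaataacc
The first and last of these lines differed at 28 of 60 bases and the TIP lines at 21. PIP2;3 is not a member, and its stretch matched that of PIP2;2 at every base. These genes lie near each other on chromosome 2, at chr2:15613368-15615022 on the minus strand and chr2:15617635-15619155 on the plus strand, and their coding sequences were 94.8% identical. Of the exact 50-base runs in the exons of the member, 14.7% occurred again in its copy, so reads from them could come from either gene and its count is uncertain. No 50-base run of the other 9 members occurred elsewhere, and no member overlapped another annotated gene.

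The recovered depth was 13996534 to 16780424 reads in scl28-3 and 10399899 to 11572901 reads in wild type. SCL28 was at 17.7, 14.9 and 13.7 CPM (reads scaled to a fixed total per library) in scl28-3, against 44.5, 42.6 and 42.4 CPM in wild type, and so was lower in each library labelled scl28-3 than in each labelled wild type. Wild-type library 1 stood apart from the rest. On the first principal component, which held 44.3% of the variance, it lay at -35.6, while the scl28-3 libraries lay at -9.44, 4.93 and 19.5 and the other wild-type libraries at 3.36 and 17.3. Fold changes of aquaporin genes, medians of lists and the spread of the members are therefore given with and without it. The series describes the pools as biological replicates, and the p-values measure the spread between these pools.

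None of the 10 aquaporin genes passed the test between scl28-3 and wild type in fits that did not pair libraries by sample number. In the limma fit over 17879 genes, 0 of 10 had an adjusted p under 0.05, against 0.0727% of all genes tested, and 1 of 10 had an unadjusted p under 0.05, against 4.37%. The quasi-likelihood test of edgeR called 0 members, against 0.0783% of all genes, with 1 at an unadjusted p under 0.05, against 4.37%. DESeq2 called 0 members, and over all genes tested it called 18 lower and 0 higher in scl28-3. For every member the CPM ranges of the genotypes overlapped, whereas 10.4% of all genes tested had ranges that did not. Fitted log2 fold changes, scl28-3 over wild type on the log2(CPM + 0.5) scale, were above 0 for 10 of 10 members and for 52.1% of all genes. Their median was 0.27 over the members and 0.01 over all genes tested. Without wild-type library 1, the median was 0.02 over the members and 0.00 over all genes, and 7 of 10 members lay above 0, against 50.2% of all genes.

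The members shared an order of libraries at its ends. All 10 were lowest in wild-type library 1, which was the lowest library for 27.8% of all genes tested. In scl28-3 library 3, 9 of 10 were highest, as were 22.8% of all genes. The median of the members' log2 values, each centred on its mean over 6 libraries, was -0.04, 0.11 and 0.35 in scl28-3 libraries 1 to 3 and -0.56, 0.12 and 0.10 in wild-type libraries 1 to 3. The libraries outside these 2 extremes lay between -0.04 and 0.12 on that scale. Within scl28-3 alone, library 1 was the lowest and library 3 the highest for every member. Within wild type, library 1 was the lowest for every member, and library 2 or library 3 was the highest. On the first principal component, libraries 1, 2 and 3 followed in that order within each genotype. Whether the sample numbers mark a shared factor was not tested.

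**Figure D1:**
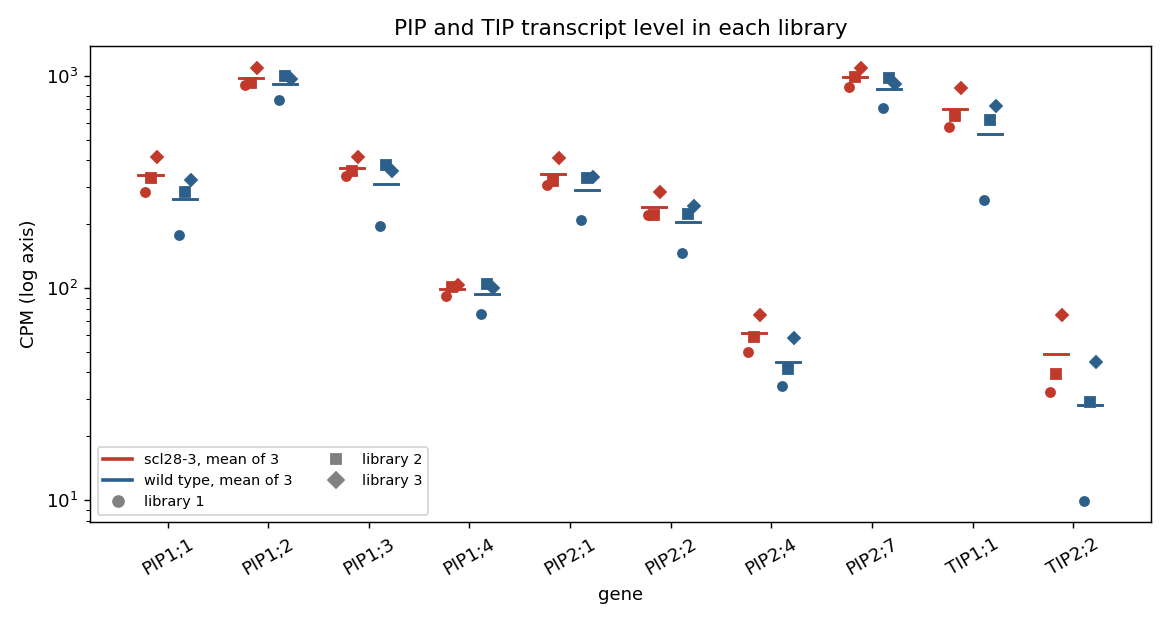
CPM (log axis) of the 10 aquaporin genes in each library, with scl28-3 left of wild type for each gene, a bar at the mean of 3 libraries and a marker shape for the library number. The circle of wild-type library 1 is the lowest point of each gene, and the genotypes overlap in all 10.

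Among the PIP1 genes, PIP1;2 (AT2G45960, chr2:18910081-18911982), which has also been studied as a route for carbon dioxide in leaves, was the most abundant. It was at 908, 924 and 1091 CPM in scl28-3 and at 766, 997 and 969 CPM in wild type. All scl28-3 libraries but library 3 lay within the wild-type range. Its log2 fold change was 0.08 ± 0.12 (SE, 95% interval -0.19 to 0.36), and -0.04 (95% interval -0.27 to 0.19) without wild-type library 1.

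PIP1;1 (AT3G61430, chr3:22733243-22735394), a plasma membrane aquaporin whose coding sequence is 87.2% identical to that of the gene above, was at 284, 330.1 and 412 CPM in scl28-3 and at 178, 282 and 324 CPM in wild type. Wild-type library 3 lay above scl28-3 library 1, and wild-type library 1 lay far below both. The log2 fold change was 0.40 ± 0.21 (SE, 95% interval -0.06 to 0.86), with a limma adjusted p = 0.994. It was 0.14 (95% interval -0.16 to 0.44) without wild-type library 1.

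PIP1;3 (AT1G01620, chr1:225665-227543) was at 335, 354 and 415 CPM in scl28-3 and at 197, 378 and 355 CPM in wild type. The low value belonged to wild-type library 1 alone, and the other wild-type libraries lay between the lowest and highest scl28-3 library. The log2 fold change was 0.28 ± 0.22 (SE, 95% interval -0.20 to 0.76) with all libraries and -0.02 (95% interval -0.24 to 0.20) without that library. PIP1;4 (AT4G00430, chr4:185285-187680) was at 91.8, 101 and 103 CPM in scl28-3 and at 75.1, 105 and 100.5 CPM in wild type. It was the member that was not highest in scl28-3 library 3, since wild-type library 2 was slightly higher. Its log2 fold change was 0.07 ± 0.13 (SE, 95% interval -0.22 to 0.36), and -0.08 (95% interval -0.27 to 0.11) without wild-type library 1.

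Of the PIP2 genes, PIP2;7 (AT4G35100, chr4:16708361-16710407) had the highest level, at 885, 990.3 and 1092 CPM in scl28-3 and at 708, 975 and 910.3 CPM in wild type. Only wild-type library 1 lay below all scl28-3 libraries. The log2 fold change was 0.18 ± 0.13 (SE, 95% interval -0.12 to 0.49), and 0.04 (95% interval -0.20 to 0.28) without that library.

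PIP2;1 (AT3G53420, chr3:19803473-19805730), a main water channel of roots that also acts in lateral root emergence, was at 306, 319 and 409.6 CPM in scl28-3 and at 209, 329 and 332 CPM in wild type. The wild-type libraries 2 and 3 lay above scl28-3 libraries 1 and 2. Its log2 fold change was 0.25 ± 0.18 (SE, 95% interval -0.15 to 0.65), and 0.03 (95% interval -0.23 to 0.28) without wild-type library 1. Of all members its centred profile lay nearest to the members' median profile, with a root mean square difference of 0.03 on the log2 scale.

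PIP2;2 (AT2G37170), which takes part in water uptake by roots, was at 221, 222 and 282 CPM in scl28-3 and at 146, 224 and 243 CPM in wild type. Its log2 fold change was 0.25 ± 0.18 (SE, 95% interval -0.15 to 0.64), and 0.02 (95% interval -0.22 to 0.25) without wild-type library 1. Because of the shared stretches printed above, its CPM was also added to that of its copy, which averaged 42.9 ± 4.47 CPM in scl28-3 and 32.3 ± 9.28 CPM in wild type (SD, n = 3 each). The sum was 258, 267 and 327 CPM in scl28-3 and 168, 258 and 284 CPM in wild type, with the same library lowest and the same library highest as for the member alone. The ratio of the member to its copy was 5.85, 4.85 and 6.24 in scl28-3 and 6.55, 6.60 and 5.99 in wild type.

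PIP2;4 (AT5G60660, chr5:24375368-24377206), known mainly from roots, was the member with an unadjusted p under 0.05. It was at 50.01, 59.0 and 74.7 CPM in scl28-3 and at 34.6, 41.6 and 58.2 CPM in wild type. Wild-type library 3 lay above scl28-3 library 1, so the genotypes overlapped. The log2 fold change was 0.44 ± 0.19 (SE, 95% interval 0.02 to 0.86), with an unadjusted p = 0.0402 and an adjusted p = 0.994 in limma. Without wild-type library 1 it was 0.27 (95% interval -0.09 to 0.63), with a limma adjusted p = 0.619.

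**Figure D2:**
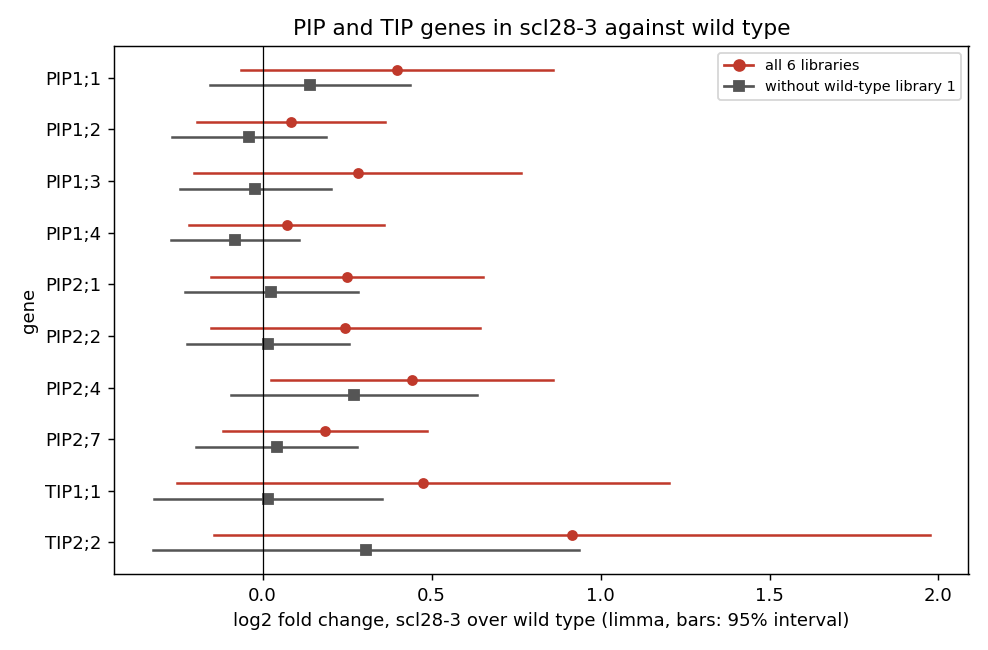
Log2 fold change of scl28-3 over wild type for each gene with its 95% interval from limma, for all 6 libraries (circles) and without wild-type library 1 (squares). The estimates lie between 0.07 and 0.92 with all libraries and between -0.08 and 0.31 without that library, where all 10 intervals span 0.

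Over all 6 libraries the TIP members had the widest spread. TIP1;1 (AT2G36830, chr2:15445294-15446621), also called gamma-TIP and used as a marker of the large central vacuole, was at 574, 644 and 878 CPM in scl28-3 and at 260.3, 621 and 719.6 CPM in wild type. Its highest library held 3.37 times the CPM of wild-type library 1, and the remaining wild-type libraries lay within the scl28-3 range. The log2 fold change was 0.47 ± 0.32 (SE, 95% interval -0.25 to 1.20), and 0.02 (95% interval -0.32 to 0.35) without wild-type library 1.

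TIP2;2 (AT4G17340, chr4:9698940-9700472), a delta-type TIP, was at 32.5, 39.1 and 74.5 CPM in scl28-3 and at 9.94, 29.1 and 45.0 CPM in wild type. The highest library held 7.49 times the lowest over all 6, 2.29 times within scl28-3 and 4.53 times within wild type. Its log2 fold change was the largest of the 10 and had the widest interval, 0.92 ± 0.47 (SE, 95% interval -0.14 to 1.97), with a limma adjusted p = 0.994. Leaving out wild-type library 1 gave 0.31 (95% interval -0.32 to 0.94), and leaving out scl28-3 library 3 instead gave 0.57.

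Counting error was compared with this spread for the members at its ends. The thinnest value, that of TIP2;2 in wild-type library 1, rested on 115 reads, for which counting alone gives a coefficient of variation of 9.33%. Between libraries its CPM varied by 46.3% in scl28-3 and by 62.7% in wild type. For PIP1;2 the library with fewest reads had a counting error of 1.06%, and CPM varied by 10.4% in scl28-3 and 13.8% in wild type. Counting error here treats reads as independent molecules.

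The spread was also ranked among 6290 genes with a mean log2 value of at least 5, whose median SD over the 6 libraries was 0.13. TIP2;2 had an SD of 0.93, and 1 of these genes had a larger one. It was the least abundant member, with a mean of 38.4 CPM over the 6 libraries. Genes under the cutoff were not ranked, among them TIP2;3, with a mean of 19.8 CPM and an SD of 0.98. For TIP1;1 the SD was 0.59, and 21 genes had a larger one. PIP1;2 had the smallest SD of the members, 0.16, which 29.5% of these genes exceeded. The remaining 7 members had SDs of 0.18 to 0.39. Over the 5 libraries other than wild-type library 1, a comparison added after seeing the data, the median SD of these genes was 0.11. TIP2;2 was still the widest member, with an SD of 0.50 that 13 genes exceeded, but PIP2;4 came next with 0.29, exceeded by 101 genes. TIP1;1 then had an SD of 0.22, exceeded by 348 genes, and the smallest SD was that of PIP1;4, at 0.085. The SDs of PIP1;2, PIP1;3 and PIP2;7 were 0.10 to 0.12, near the median gene.

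**Figure D3:**
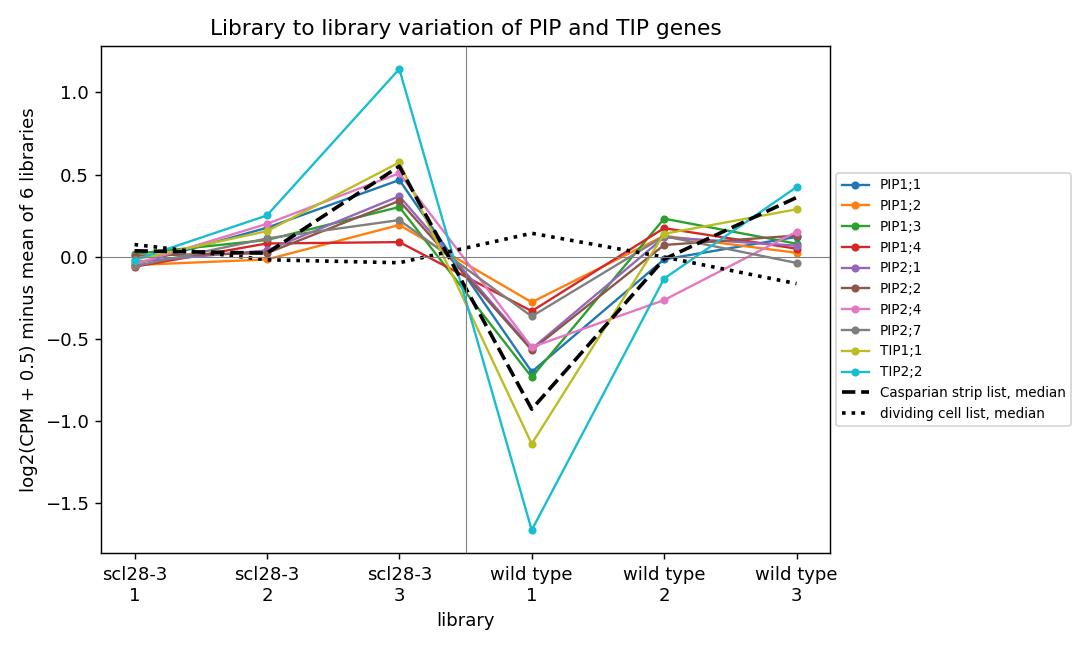
Log2(CPM + 0.5) of each gene minus its mean over 6 libraries, with scl28-3 libraries on the left and wild-type libraries on the right, and the medians of the Casparian strip list (dashed) and the dividing cell list (dotted). The widest line, TIP2;2, runs between -1.66 and 1.14. The dashed line runs between -0.93 and 0.55 and the dotted line between -0.16 and 0.14. Both are medians of lists, which can vary less than single genes of the list.

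Upstream sequence is shown for the extremes of spread over all 6 libraries, the TIP members and PIP1;2. Each line holds the 200 bases before the annotated gene start in TAIR10.1, 5′ to 3′ on the plus strand, at chr4:9698740-9698939, chr2:15445094-15445293 and chr2:18909881-18910080 in that order. Both strands were searched for 3 motifs. These were TATAAA, known as the TATA box, then ACGTG, the core of the abscisic acid response element, and AACGG, the core of the element bound by MYB3R factors of mitosis. Capitals mark the matches, 1 in each line, so no matches overlapped here.
TIP2;2: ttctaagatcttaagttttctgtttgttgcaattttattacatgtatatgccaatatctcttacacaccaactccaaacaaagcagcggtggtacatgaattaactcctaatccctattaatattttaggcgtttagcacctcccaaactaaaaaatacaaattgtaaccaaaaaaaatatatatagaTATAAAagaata
TIP1;1: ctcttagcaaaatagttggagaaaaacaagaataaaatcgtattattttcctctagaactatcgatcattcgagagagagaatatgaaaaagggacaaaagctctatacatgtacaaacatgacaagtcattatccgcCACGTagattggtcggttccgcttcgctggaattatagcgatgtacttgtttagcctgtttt
PIP1;2: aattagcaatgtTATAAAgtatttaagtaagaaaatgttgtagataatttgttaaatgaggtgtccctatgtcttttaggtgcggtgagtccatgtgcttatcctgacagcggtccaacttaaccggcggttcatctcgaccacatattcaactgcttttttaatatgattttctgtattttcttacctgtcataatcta
Among the 10 members TATAAA was in 3 windows, ACGTG in 1 and AACGG in 1. Of 27443 such windows of protein-coding genes, 41.0% held TATAAA, 19.8% ACGTG and 17.4% AACGG. The TIP windows had no match in common, and a match describes letters and not a bound site.

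Levels of different genes were compared as CPM per kb of merged exons, where the members fell into 3 tiers. The top tier held PIP1;2 with 610 ± 63.5 in scl28-3 and 570.2 ± 78.8 in wild type, PIP2;7 with 617 ± 64.6 in scl28-3 and 539 ± 87.1 in wild type, and TIP1;1 with 565 ± 129 in scl28-3 and 431 ± 195 in wild type (CPM per kb, SD, n = 3 each). The ranges of these neighbours over libraries overlapped. Library by library, PIP1;2 lay above PIP2;7 in 5 of 6 and PIP2;7 above TIP1;1 in 4 of 6. TIP1;1 lay above the next gene in order, PIP1;3, in 6 of 6 libraries, although their ranges over libraries overlapped. TIP1;1 was first of all members in scl28-3 library 3, at 709.9 CPM per kb, and was below both others in wild-type library 1, at 210.5 CPM per kb. The middle tier held 4 genes with genotype means of 152 to 238 CPM per kb, in the order PIP1;3, PIP2;1, PIP1;1 and PIP2;2. The range of each over libraries overlapped that of the next. Within libraries, PIP1;3 lay above PIP2;1 in 5 of 6, PIP2;1 above PIP1;1 in 4 of 6 and PIP1;1 above PIP2;2 in 6 of 6. The lowest tier held PIP1;4, PIP2;4 and TIP2;2, with genotype means of 20.7 to 49.4 CPM per kb and again overlapping neighbours. The highest value of the lowest tier was 55.1 and the lowest value of the middle tier 109 CPM per kb, so these tiers did not overlap.

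**Figure D4:**
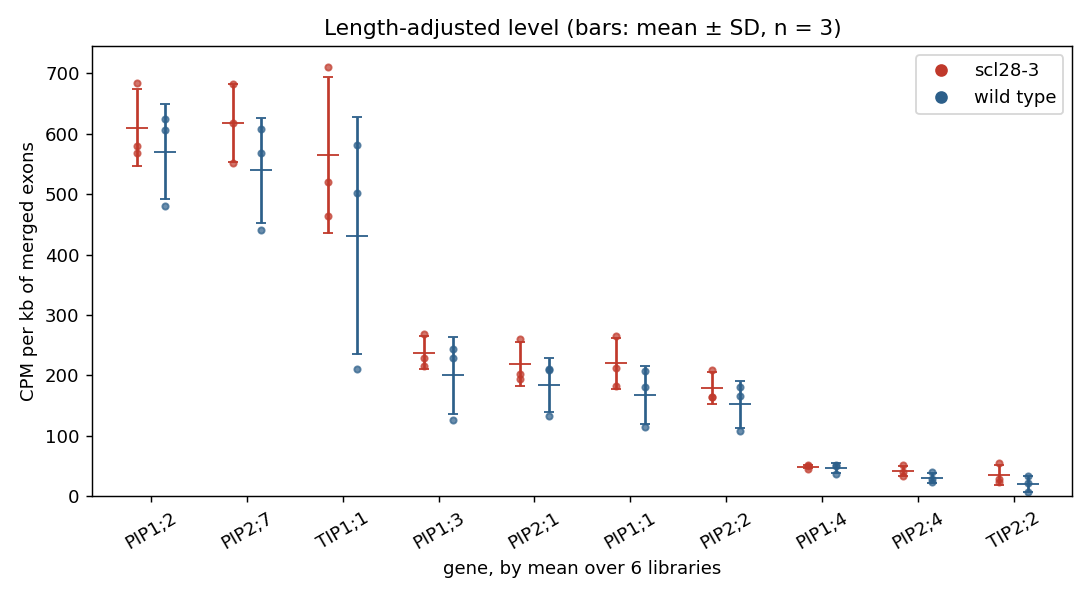
CPM per kb of merged exons for each gene in the order of the mean over 6 libraries, with points for libraries and bars for the mean ± SD (n = 3) of scl28-3 (left) and wild type (right). The first 3 genes reach 441 CPM per kb or more in each library except for TIP1;1 in wild-type library 1 at 210.5, and the last 3 stay at or under 55.1.

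Summed over the 10 members, aquaporin RNA came to 3687, 3982 and 4833 CPM in scl28-3 and 2584, 3981 and 4057 CPM in wild type. Wild-type library 1 was lowest and scl28-3 library 3 highest. The mean was 4167 ± 595 CPM in scl28-3 and 3540.4 ± 829 CPM in wild type (SD, n = 3 each), a ratio of 1.18, or 1.04 without wild-type library 1. Summed PIP2 over summed PIP1 CPM was 0.90, 0.93 and 0.92 in scl28-3 and 0.90, 0.89 and 0.88 in wild type, a narrow range. The genotypes did not overlap in this ratio but nearly met, at 0.9026 in scl28-3 library 1 and 0.9023 in wild-type library 1. The difference was not tested. Summed TIP over summed PIP CPM was 0.197, 0.207 and 0.246 in scl28-3 and 0.117, 0.195 and 0.232 in wild type, with wild-type library 1 again lowest.

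In the whole aquaporin family of 35 genes, 29 were listed and 24 tested. Limma and edgeR called 0 of the 24, against 0.0727% and 0.0783% of all genes. At an unadjusted p under 0.05 were 3 by limma and 1 by edgeR, against 4.37% by each. Of the 24, 18 had a log2 fold change above 0, against 52.1% of all genes. Without wild-type library 1, 12 had one, against 50.2%. The 18 include all 10 members. Of the rest, 3 of 4 other PIP genes, 3 of 4 other TIP genes and 1 of 3 in each of the NIP and SIP groups described below lay above 0. The 10 members made up 69.7% to 71.1% of the family's CPM in scl28-3 and 68.6% to 70.7% in wild type.

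The most abundant aquaporin outside the members was TIP1;2, also a vacuolar channel, at 590.5, 689 and 841 CPM in scl28-3 and at 323, 628 and 699 CPM in wild type. Its lowest and highest libraries were those of most members, and its log2 fold change was 0.41 ± 0.25 (SE, 95% interval -0.16 to 0.97). Without wild-type library 1 it was 0.06 (95% interval -0.23 to 0.34). The delta-TIP gene TIP2;1 was at 142, 175 and 230.5 CPM in scl28-3 and at 111, 204 and 233 CPM in wild type. It was lowest in the same library, but its genotype means were 182.5 CPM in scl28-3 and 182.4 CPM in wild type. The log2 fold change was 0.02 ± 0.26 (SE, 95% interval -0.55 to 0.60) with that library and -0.31 (95% interval -0.66 to 0.05) without it. Its exons overlap annotated genes on the opposite strand, and whether counting used the strand is not given in the sources used here. In contrast TIP4;1, another vacuolar aquaporin, averaged 208 ± 5.36 CPM in scl28-3 and 209 ± 19.4 CPM in wild type (SD, n = 3 each), with values in wild type on both sides of those in scl28-3. For this gene the fitted log2 fold change was -0.02 ± 0.10 (SE, 95% interval -0.24 to 0.19), and -0.08 (95% interval -0.28 to 0.11) without wild-type library 1.

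NIP1;1, of the nodulin-26-like group that passes small uncharged solutes, averaged 258 ± 2.11 CPM in scl28-3 and 228 ± 26.5 CPM in wild type (SD, n = 3 each). Its genotypes did not overlap, and its log2 fold change of 0.17 ± 0.09 (SE, 95% interval -0.05 to 0.38) did not pass the test, nor did that of 0.22 (95% interval 0.02 to 0.42) without wild-type library 1 (limma adjusted p = 0.485). SIP1;1, of the small basic group in the endoplasmic reticulum, averaged 109 ± 1.66 CPM in scl28-3 and 105 ± 7.53 CPM in wild type, and PIP1;5 averaged 79.6 ± 20.3 CPM in scl28-3 and 71.1 ± 17.97 CPM in wild type (SD, n = 3 each). Without wild-type library 1 the log2 fold change of SIP1;1 was -0.02 (95% interval -0.20 to 0.16), against 0.03 ± 0.09 (SE, 95% interval -0.17 to 0.23) with it, and that of PIP1;5 was -0.09 (95% interval -0.45 to 0.28), against 0.15 ± 0.21 (SE, 95% interval -0.33 to 0.62) with it.

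TIP2;3, a copy of TIP2;2 with a coding sequence 81.8% identical, was named after its values were seen. It was at 18.1, 20.5 and 39.8 CPM in scl28-3 and at 4.67, 13.1 and 22.6 CPM in wild type, a spread of 8.51 times from lowest to highest library. The ratio of the member to this copy was 1.79, 1.91 and 1.87 in scl28-3 and 2.13, 2.23 and 1.99 in wild type. The genotypes did not overlap in this ratio, which was not tested. The nearest values were 1.91 in scl28-3 library 2 and 1.99 in wild-type library 3. In wild-type library 1 the count of TIP2;3 rested on 54 reads, for which counting alone gives a coefficient of variation of 13.6%. For TIP2;3 the log2 fold change was 1.07 ± 0.47 (SE, 95% interval 0.02 to 2.13), with a limma adjusted p = 0.994. Without wild-type library 1 it was 0.48 (95% interval -0.17 to 1.13), an interval that spans 0. PIP2;6, likewise named after its values were seen, averaged 20.3 ± 2.24 CPM in scl28-3 and 23.8 ± 0.68 CPM in wild type (SD, n = 3 each). Its genotypes did not overlap, with a log2 fold change of -0.25 ± 0.11 (SE, 95% interval -0.50 to -0.00) and a limma adjusted p = 0.994, and of -0.25 (95% interval -0.51 to 0.01) without wild-type library 1.

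Vacuoles and plasma membranes also carry proton pumps, which energize transport. Neither limma nor edgeR called any of 11 pump genes, with 0 at an unadjusted p under 0.05 by each, 5 log2 fold changes above 0, 6 below and a median of -0.0034, or -0.0035 without wild-type library 1. The vacuolar pyrophosphatase gene AVP1 was at 1039, 969.8 and 950.4 CPM in scl28-3 and at 1159, 1102 and 945 CPM in wild type, and the catalytic subunit gene VHA-A of the vacuolar ATPase at 951, 955 and 1042 CPM in scl28-3 and at 1050, 897 and 974 CPM in wild type. The summed pump CPM was 5413, 5337 and 5669.7 in scl28-3 and 5921, 5314 and 5283 in wild type, highest in the library where the aquaporins were lowest. The sum does not describe every pump gene. Of the 11, 1 was lowest in wild-type library 1, against 27.8% of all genes, and 6 were highest in scl28-3 library 3, against 22.8%.

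Casparian strip genes were lowest and highest in nearly the same libraries as the aquaporins. The 9 Casparian strip genes, which mark the differentiating endodermis, summed to 328, 325 and 480.1 CPM in scl28-3 and to 172, 303 and 401.4 CPM in wild type. Of the 9, 8 were lowest in wild-type library 1, against 27.8% of all genes, and 9 highest in scl28-3 library 3, against 22.8%. None was at 0 in any library, and the median log2 fold change was 0.43, or 0.07 without wild-type library 1. Limma and edgeR called 0 of 9, with 2 at an unadjusted p under 0.05 by each. The Casparian strip scaffold gene CASP1 was at 60.2, 63.4 and 104 CPM in scl28-3 and at 25.0, 63.4 and 86.4 CPM in wild type, and ESB1, a dirigent-like gene of the same barrier, at 77.1, 74.8 and 111 CPM in scl28-3 and at 38.8, 72.3 and 98.3 CPM in wild type. The part of these markers in the aquaporin values was not tested.

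The 8 root hair genes summed to 366, 385 and 455 CPM in scl28-3 and 332, 307 and 386 CPM in wild type. Of them, 3 were lowest in wild-type library 1, against 27.8% of all genes, and 7 highest in scl28-3 library 3, against 22.8%. Limma and edgeR called 0 of them, with 1 and 2 in that order at an unadjusted p under 0.05, and their median log2 fold change was 0.22, or 0.18 without wild-type library 1. The most abundant were RHD2, an oxidase gene of hair growth, with 90.5 ± 5.08 CPM in scl28-3 and 83.5 ± 11.7 CPM in wild type, and the wall protein gene PRP3, with 77.4 ± 15.2 CPM in scl28-3 and 58.7 ± 11.9 CPM in wild type (SD, n = 3 each). The 3 xylem genes summed to 38.9 to 53.6 CPM in scl28-3 and 33.1 to 44.6 CPM in wild type. All 3 were lowest in wild-type library 1, against 27.8% of all genes, and highest in scl28-3 library 3, against 22.8%. Their median log2 fold change was 0.12, or 0.0054 without wild-type library 1. The protease gene XCP1 averaged 28.9 ± 6.07 CPM in scl28-3 and 27.1 ± 5.76 CPM in wild type and the secondary wall cellulose synthase gene IRX3 13.6 ± 1.84 CPM in scl28-3 and 11.6 ± 0.60 CPM in wild type (SD, n = 3 each). IRX3 was at 11.23 CPM in wild-type library 1 and 11.32 CPM in wild-type library 3, a near tie. The least abundant xylem gene had 15 reads in wild-type library 1. It was at 2.03 CPM in scl28-3 library 3 and 2.00 CPM in scl28-3 library 1, again a near tie.

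The 5 genes of dividing cells summed to 222, 206 and 199.9 CPM in scl28-3 and 224, 205 and 187 CPM in wild type. Among them, 0 were lowest in wild-type library 1, against 27.8% of all genes, and 0 highest in scl28-3 library 3, against 22.8%. Their median log2 fold change was 0.0015, or 0.06 without wild-type library 1. The cytokinesis syntaxin gene KN averaged 66.0 ± 3.17 CPM in scl28-3 and 62.6 ± 7.40 CPM in wild type, and the mitotic cyclin gene CYCB1;2 averaged 46.2 ± 2.49 CPM in scl28-3 and 47.3 ± 5.60 CPM in wild type (SD, n = 3 each). The 4 genes of the meristem and quiescent centre had a median log2 fold change of -0.06, or 0.04 without wild-type library 1, and the 4 root cap genes one of 0.06, or 0.15 without it. In neither list was a gene lowest in wild-type library 1, against 27.8% of all genes, or highest in scl28-3 library 3, against 22.8%. In the meristem list, the ground tissue regulator gene SHR averaged 43.5 ± 2.35 CPM in scl28-3 and 39.0 ± 3.27 CPM in wild type and the stem cell factor gene PLT1 20.4 ± 2.58 CPM in scl28-3 and 21.1 ± 2.96 CPM in wild type. In the root cap list, SMB averaged 19.5 ± 2.87 CPM in scl28-3 and 21.9 ± 3.05 CPM in wild type and BRN1 12.7 ± 2.71 CPM in scl28-3 and 11.4 ± 3.61 CPM in wild type, both genes of NAC factors of cap maturation (SD, n = 3 each). Green shoot genes, which the tip should hardly express, were low, with 5 genes summing to 12.6 to 22.1 CPM in scl28-3 and 12.4 to 21.0 CPM in wild type. Of the 5, 2 were lowest in wild-type library 1, against 27.8% of all genes, and 3 highest in scl28-3 library 3, against 22.8%. Their median log2 fold change was -0.10, or -0.16 without wild-type library 1. Of these the light-harvesting gene CAB1 averaged 7.07 ± 1.67 CPM in scl28-3 and 6.91 ± 3.12 CPM in wild type and the Rubisco small subunit gene RBCS1A 5.69 ± 2.58 CPM in scl28-3 and 5.75 ± 0.92 CPM in wild type (SD, n = 3 each). Limma and edgeR called 0 genes in each of these lists and in the xylem list, with 0 at an unadjusted p under 0.05 in each.

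Outside the family, the 5 genes whose centred profile over the 6 libraries lay nearest to the median profile of the members were sought among 6271 genes. RD19 (AT4G39090), a drought-induced cysteine protease gene, was nearest, with a root mean square difference of 0.0486 on the log2 scale. It was at 233, 242 and 295 CPM in scl28-3 and at 166, 254 and 256 CPM in wild type. The others were AT3G60300, which encodes an RWD domain protein, with a difference of 0.0515, MOP10 (AT5G05500), of the extensin and pollen allergen family, with 0.0529, AKINBETA1 (AT5G21170), a kinase beta subunit gene, with 0.0579, and PHOS34 (AT4G27320) with 0.0629. These rankings rest on 6 libraries and describe likeness only.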

How the data were processed

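RNA-seq was analysed in 3 scl28-3 and 3 wild-type libraries. The submitters' processing notes name the TAIR10 genome, the aligner HISAT2 2.0.0, the counter HTSeq 0.6.1p1 and edgeR. Which annotation release, edgeR version and strand setting applied is not given in the sources used here. Deposited values were CPM, read counts that the authors scaled to library size, per the file headers, with 2 decimals. Whole reads were recovered from the CPM steps for 99.9905% to 100% of values, within 0.1 read, and 3 reads equal 0.179 to 0.288 CPM.

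The test was limma 3.58.1 with a trend (R 4.3.3) on log2(CPM + 0.5), after TMM factors from edgeR 4.0.16. It ran over 17879 genes kept by filterByExpr (minimum count 10), two-sided, with Benjamini-Hochberg adjustment over all of them and a threshold of 0.05. The scale understates changes of low genes. edgeR's quasi-likelihood test and DESeq2 1.42.0 on recovered reads were alternatives, and the first called 14 genes, against 13 by limma. The fits were tested on simulated data. Further alternatives covered pseudocounts of 0.1, 1 and 2, scaling, filters, a replicate block and leaving out each library.

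The members and lists were chosen with earlier results of these data known, so counts over them are descriptions. Named besides the members were SCL28, called genes of each list, the 6 most abundant other aquaporins, PIP2;3, the 2 most abundant genes of each other list, and the 5 genes of nearest profile. TIP2;3, PIP2;6, MYB36 and SGN3 are outside that rule, and their values were known when they were chosen. Gene models, lengths and sequences came from RefSeq's TAIR10.1 annotation, read with Biopython 1.88. In a chi-square comparison of reads, no pair of libraries of a genotype agreed within sampling noise.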

Additional observations from a re-analysis of the deposited data

How the results depend on the processing

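Over the 10 members and 16 alternatives, 155 of 160 fold changes kept their direction and their side of the threshold. Without wild type library 1, 3 reversed, and none of these 3 passed the test in any fit. Leaving out each library in turn gave log2 fold changes of -0.040 to 0.17 for PIP1;2, -0.021 to 0.47 for PIP1;3 and -0.082 to 0.18 for PIP1;4. The same alternatives gave a median log2 fold change of the members of 0.02 to 0.40, a summed CPM ratio of 1.04 to 1.27, 0 members called and 5 to 18 genes called lower, against 13 with all libraries. The labels do not say that sample numbers pair the libraries, and the main fit did not pair them. Correlations of deviations between same-numbered libraries were 0.44, 0.04 and 0.50, high for numbers 1 and 3 but not for number 2. Wild-type library 2 correlated best with scl28-3 library 3, at 0.064. However, 0.50 and 0.44 were the highest values of any pair, and the pairs crossing numbers 1 and 3 gave -0.45 and -0.46. With them as a replicate block, limma called 40 genes lower and 24 higher, against 13 and 0 without the block, and 2 members, PIP2;4 (adjusted p = 0.0335) and TIP2;2 (adjusted p = 0.0454). Without the block the lowest adjusted p of a member in any alternative was 0.619. Settings of the fit do not apply to the summed CPM ratio. The effect of depth on the members' fold changes was not tested. Their intervals were wide, up to -0.14 to 1.97 for TIP2;2.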
